A study of Mus musculus with 6 samples.

Results

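DNA methylation writers, erasers and readers were followed in poly(A)-selected RNA of mouse RPE/choroid, the retinal pigment epithelium with the vascular layer beneath it. The genes are Dnmt1, Dnmt3a, Dnmt3b, Tet1, Tet2, Tet3, Uhrf1, Mbd2 and Mbd3. They were taken by gene symbol, which gave 9 of the 33924 genes in the authors' deposited table, namely 3 writers, 3 erasers and 3 readers. The libraries came from 3 young and 3 aged wild-type mice of the C57BL/6J strain, and each sample held both eyes of 1 animal. The sample titles give 1 to 2 months for the young mice and 20 to 24 months for the aged mice, whereas the age field of the aged mice gives 22 to 24 months. The labels describe all of these mice as male, while the paper describes mice of both sexes and a slightly older young group. The labels name poly(A) RNA as the molecule and describe ribosomal RNA removal with a total RNA kit in the same samples.

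The study asked how gene expression in RPE/choroid differs between young and aged mice. The value used here is 1 mean normalized count per gene, which the authors averaged over the 6 libraries of both ages. The table's other columns hold the authors' own comparison of the ages and were not used, so no difference with age is given for any of the 9 genes. The values below are levels over young and aged mice together, and they have no SD and no range between mice. An order of 2 genes by these levels therefore has no test, and whether neighbours in the order differ beyond the spread between mice cannot be said.

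In vertebrates DNA methylation sits mainly on the cytosine of CpG dinucleotides. Dnmt3a and Dnmt3b add methyl groups at new sites, and Dnmt1 copies the pattern onto the new strand after replication. Uhrf1 reads hemimethylated DNA and brings Dnmt1 to it. The Tet enzymes oxidize 5-methylcytosine to 5-hydroxymethylcytosine and further, which starts the removal of the mark. Mbd2 binds methylated CpG sites, and Mbd2 and Mbd3 are alternative subunits of the NuRD chromatin complex. Mammalian Mbd3 binds methylated DNA only weakly.

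Each of the 9 genes was detected, with mean normalized counts between 119 for Dnmt3b and 3635 for Mbd2. Among the 18479 genes whose mean reached 10 or more, the median was 668. Mbd2, Dnmt3a, Mbd3, Tet2, Dnmt1 and Tet3 lay above it, and Tet1, Uhrf1 and Dnmt3b lay below it. Long transcripts yield more reads, and the counts were taken as not already divided by length, which was not tested. The paper's supporting methods state that TPM values, which already account for transcript length, were transformed into normalized counts. If the counts kept that correction, dividing by length again would place Tet1 and other genes with long transcripts too low. It would place genes with short transcripts, such as Mbd2 and Mbd3, too high. The undivided counts would then be the scale to compare. Taking the counts as not divided, the genes were compared with each other per kilobase of the longest annotated transcript. On that scale the 2 Mbd genes stood highest, Dnmt3a and Dnmt1 lay above the median gene, and the 3 Tet genes, Uhrf1 and Dnmt3b lay below it. The median gene had 214 normalized counts per kilobase over the 17905 genes with a mean of at least 10 and a known length.

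**Figure D1:**
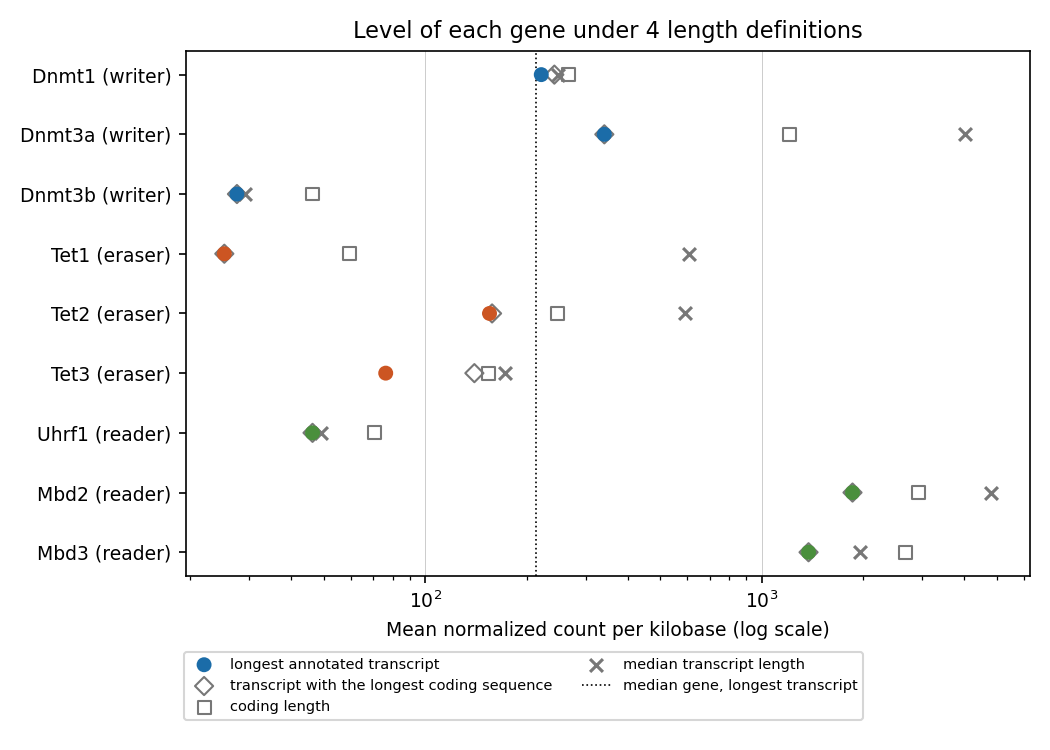
Mean normalized count per kilobase (log axis) of the 9 genes, each a mean over the 6 libraries, divided by 4 definitions of transcript length. Filled circles use the longest annotated transcript and are colored by class, open and crossed symbols use the other lengths, and the dotted line is the median gene at 214 per kilobase of the longest transcript. The circles of Mbd2 (1861) and Mbd3 (1378) lie farthest to the right and those of Tet1 (25.3) and Dnmt3b (27.6) farthest to the left, and the crosses of Tet1 and Dnmt3a lie far from their circles.

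Among the writers, Dnmt3a had the highest level. It is located at chromosome 12 (plus strand), 3806007 to 3914443 in GRCm38, with 18 annotated transcripts, and its longest transcript has 23 exons and 9685 bases. Its mean normalized count was 3298, which placed it at percentile 85.1 of the genes with a mean of at least 10. Per kilobase its level was 341, or 1.59 times that of the median gene. The position of Dnmt3a among all genes was thus higher by count than by level per kilobase, where it stood at percentile 60.4. Its coding sequence makes up 2724 of the 9685 bases.

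Dnmt1, the maintenance enzyme, is located at chromosome 9 (minus strand), 20907209 to 20959888. Its longest transcript has 39 exons and 5870 bases. Its mean normalized count was 1298, at percentile 65.3, and its level per kilobase was 221, at percentile 50.8. Dnmt1 was therefore at nearly the level of the median gene, and Dnmt3a was 1.54 times as high per kilobase.

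Dnmt3b had the lowest level of the writers. It is located at chromosome 2 (plus strand), 153649450 to 153687730, and its longest transcript has 24 exons and 4320 bases. Its mean normalized count was 119, at percentile 24.2, and its level per kilobase was 27.6, at percentile 16.1. Dnmt3a was 12.4 times and Dnmt1 was 8.03 times as high as Dnmt3b per kilobase. Dnmt3a held 57.8%, Dnmt1 37.5% and Dnmt3b 4.68% of the summed level of the writers per kilobase of the longest transcript. With the coding length these shares were 79.4%, 17.5% and 3.03%, and with the median transcript length they were 93.6%, 5.76% and 0.676%. Dnmt3b shares 9.81% of its transcript words of 50 bases with Dnmt3c, a related methyltransferase gene, so reads from those stretches cannot be assigned to one of them by sequence alone.

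Among the erasers, the order per kilobase of the longest transcript was Tet2, Tet3 and Tet1. Tet2 is located at chromosome 3 (minus strand), 133463679 to 133545139, with a longest transcript of 11 exons and 9179 bases. For Tet2 the mean normalized count was 1425, with a level of 155 per kilobase, at percentile 43.0. Tet3 is located at chromosome 6 (minus strand), 83362373 to 83459084, with a longest transcript of 11 exons and 10904 bases. For Tet3 the mean normalized count was 832, with a level of 76.3 per kilobase, at percentile 30.0. All 3 Tet genes were below the median gene on this scale, although Tet2 and Tet3 lay above the median by count.

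Tet1 is located at chromosome 10 (minus strand), 62804570 to 62908996. Its longest transcript, with 13 exons and 14369 bases, is the longest of the 9 genes. Its mean normalized count was 363, at percentile 38.8, and its level per kilobase was 25.3, at percentile 15.0. Tet1 thus had more counts than Dnmt3b and a slightly lower level per kilobase. Tet2 was 6.14 times and Tet3 was 3.02 times as high as Tet1 per kilobase. Tet2 held 60.4%, Tet3 29.7% and Tet1 9.84% of the summed level of the erasers.

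The order of the Tet genes rested on the length chosen. With the median length over all annotated transcripts of a gene, which is 599.5 bases for Tet1 because most of its annotated transcripts are short, the level of Tet1 was 606 per kilobase, that of Tet2 was 592 and that of Tet3 was 172. With the coding length the order was again Tet2, Tet3 and Tet1, at 247, 154 and 59.4 per kilobase. With the transcript that carries the longest coding sequence, a length added after the data were seen, Tet2 was 1.13 times as high as Tet3 in place of 2.03 times. Which transcripts were expressed in these libraries cannot be read from a single value per gene.

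**Figure D2:**
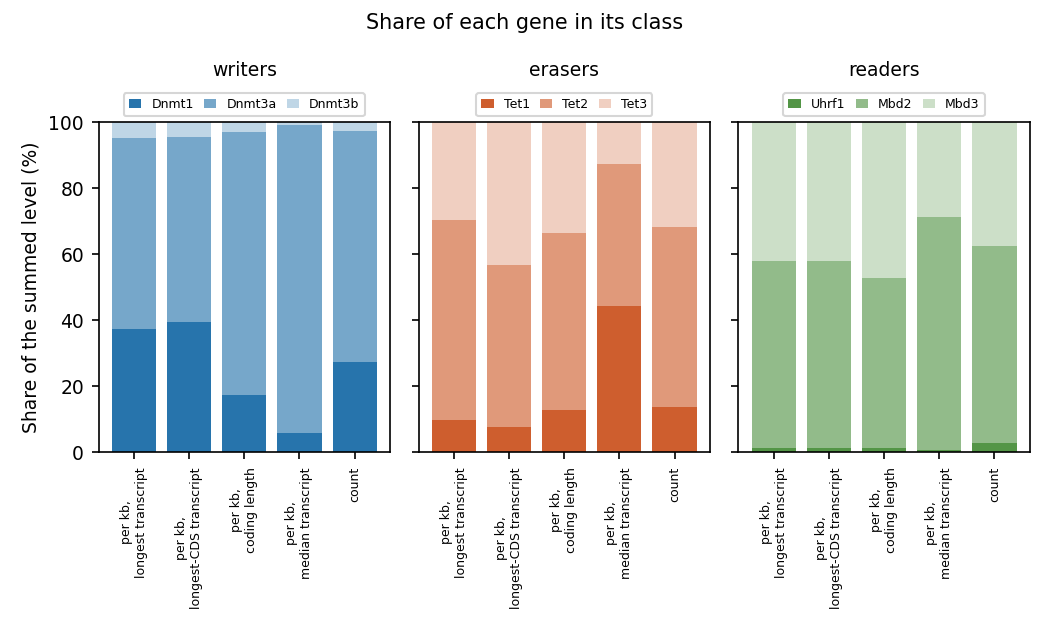
Share (%) of each gene in the summed level of its class, for the 3 writers, the 3 erasers and the 3 readers, under 5 scales, with stacked bars from the means over the 6 libraries. Dnmt3a holds the largest share of the writers and Mbd2 that of the readers on every scale, whereas the share of Tet1 among the erasers goes from 9.84% with the longest transcript to 44.2% with the median transcript length.

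Among the readers, Mbd2 and Mbd3 had levels far above that of Uhrf1. Mbd2 is located at chromosome 18 (plus strand), 70568189 to 70626131, with a longest transcript of 7 exons and 1953 bases. For Mbd2 the mean normalized count was 3635, with a level of 1861 per kilobase, which is 8.71 times that of the median gene and percentile 89.8. Mbd3 is located at chromosome 10 (minus strand), 80392539 to 80399550, with a longest transcript of 7 exons and 1662 bases. For Mbd3 the mean normalized count was 2290, with a level of 1378 per kilobase, which is 6.45 times that of the median gene and percentile 86.7. Mbd2 was 1.35 times as high as Mbd3 per kilobase and 1.09 times as high with the coding length.

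Uhrf1 is located at chromosome 17 (plus strand), 56303321 to 56323486, with a longest transcript of 17 exons and 3586 bases. Its mean normalized count was 166, at percentile 28.0, and its level per kilobase was 46.2, at percentile 22.7. Mbd3 was 29.8 times and Dnmt1, the enzyme that Uhrf1 recruits, was 4.78 times as high per kilobase. Uhrf1 held 1.41% of the summed level of the readers, 2.72% by the undivided count and 0.717% with the median transcript length. A processed pseudogene, Gm5648, shares 14.7% of the 50-base words of Uhrf1 and was listed with a mean normalized count of 2.97. Apart from Uhrf1 and Dnmt3b, the genes shared at most 0.467% of their words with other annotated genes, and Tet2, Mbd2 and Mbd3 shared none.

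Uhrf2, the paralog of Uhrf1, reached a mean normalized count of 1797, with a level of 508 per kilobase, 11.0 times that of Uhrf1. Uhrf2 was in a list of 8 partners of the writers, of which 6 lay above the median gene per kilobase. The highest was Pcna, the sliding clamp of DNA replication and repair, at 3162 per kilobase. Mat2a, which makes the methyl donor S-adenosylmethionine, followed at 1858. Usp7, a deubiquitinase that acts on Uhrf1 and Dnmt1, had 989 and Ahcy, which removes S-adenosylhomocysteine, had 552. Hells, a chromatin remodeler needed for methylation of repeats, was low at 28.4 per kilobase. Dnmt3l, a cofactor of Dnmt3a and Dnmt3b without catalytic activity of its own, was the lowest with 2.24 per kilobase. Its mean normalized count was 4.07, below the minimum of 10. Hells and Dnmt3l lay below the median gene together with Dnmt3b and Uhrf1, and these 4 genes were at or below 46.2 per kilobase.

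Of 10 partners of the erasers, 9 lay above the median gene per kilobase. By the undivided count Apex1 (284), Mbd4 (376) and Gadd45a (572) lay below the median of 668, and the others lay above it. Idh2 and Idh1, which make 2-oxoglutarate, the cosubstrate of the Tet enzymes, had 4286 and 2910 per kilobase. Ogt, a glycosyltransferase that binds Tet proteins, had 1109. Tdg, the glycosylase that removes the oxidized bases made by Tet enzymes, had 360, which is above each of the Tet genes on this scale. By the undivided count Tdg (1262) lay below Tet2 (1425) and above Tet3 (832) and Tet1 (363). The lowest of the list was Mbd4, a glycosylase with a methyl-CpG-binding domain, at 104 per kilobase.

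Of 6 other readers, 4 lay above the median gene, and all 6 were below Mbd2 and Mbd3 per kilobase. The range went from 41.6 for Mbd6 to 562 for Zbtb4, a zinc finger protein that binds methylated DNA. By the undivided count Zbtb4 (4386) lay above Mbd2 (3635) and Mbd3 (2290), Zbtb38 (3095) lay above Mbd3 only, and the others lay below both. Of 12 other NuRD subunits, 9 lay above the median gene per kilobase. Rbbp7, a histone-binding subunit, was the highest at 3646 per kilobase and Gatad2b the lowest at 3.49. The median of the 12 was 914 per kilobase, below the levels of Mbd2 and Mbd3. By the undivided count the middle values of the 12 were 1426 (Hdac1) and 3628 (Hdac2), which lie on either side of Mbd3 (2290). The remodeling ATPases Chd4 and Chd3 had 967 and 944 per kilobase, and the deacetylases Hdac2 and Hdac1 had 1116 and 700.

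Uhrf1 and Dnmt1 are known to be expressed most in dividing cells, so 8 genes of cell division were placed beside them. All 8 were detected and all 8 lay below the median gene per kilobase, from 15.9 for Mki67 to 175 for Mcm2. Their median was 74.7 per kilobase. Uhrf1 lay within this range and Dnmt1 lay above it. Whether these genes go together between mice cannot be seen in means over all libraries.

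**Figure D3:**
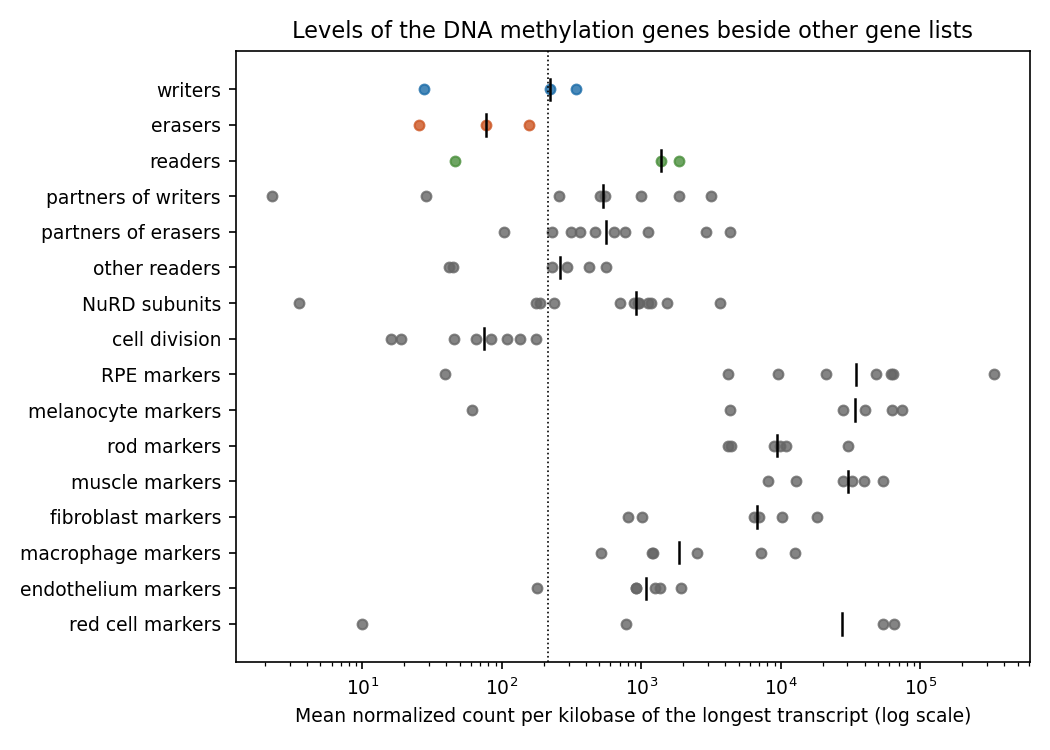
Mean normalized count per kilobase of the longest transcript (log axis) for the 9 genes by class, for partner and comparison lists and for cell type markers. Each point is 1 gene, a mean over the 6 libraries, the short black bars are list medians and the dotted line is the median gene at 214 per kilobase. The erasers and the cell division genes lie left of the line, and the marker lists have medians of 1079 per kilobase or more.

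The tissue label was checked with marker genes. Of 8 RPE markers, 7 lay between 4198 and 335233 normalized counts per kilobase, with Ttr the highest and Rpe65 at 61154, whereas Best1 had 39.3. Markers of other cells were also present. All 6 rod photoreceptor markers lay between 4145 and 30177, all 6 skeletal muscle markers between 8136 and 54081, all 6 fibroblast markers between 798 and 18042, all 6 macrophage markers between 512 and 12659 and all 6 endothelial markers between 179 and 1909. Of 6 melanocyte markers, 5 lay above the median gene, several of which RPE cells express as well. Of 6 red cell markers 4 were found in the table, between 9.94 and 64451. The part of each cell type in the levels of the 9 genes was not tested, and fewer cells of a type and less RNA per cell cannot be told apart in such samples.

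CpG sites, on which these proteins act, were counted in windows of 300 bases around annotated transcription starts. RefSeq sequences of GRCm38.p6 had such a window for 8 of the 9 genes, all except Mbd2. Of their 13 windows, 12 held more CpG sites than the median of 7 over all 32851 windows. In each of the 8 genes the window with the most CpG sites was above this median, as it was in 51.0% of all 27025 genes with a window. Tet2 had the most, with 57 CpG sites and 81.3% G and C, at percentile 99.9 of all windows. Dnmt3a had 47 and 46 in a pair of overlapping windows and 18 in the third. Dnmt3b had 30, Tet3 and Mbd3 had 22 each and Tet1 had 17. Dnmt1 differed among its starts, with 2, 12 and 33 CpG sites, and Uhrf1 had 12 and 33. The data hold no measurement of methylation at these windows, and which start was used is not known.

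Some annotated genes overlap the 9 genes. Dnmt3a and Dnmt3b each have an annotated antisense RNA, and Tet2 has a predicted one. None of these was found in the table by symbol. Tet3 overlaps B230319C09Rik on the opposite strand, which had a mean normalized count of 44.8. Uhrf1, Mbd2 and Mbd3 overlap no other annotated gene. The library kit keeps strand, but whether the quantification used it is not given in the sources used here.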

How the data were processed

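Per the paper's supporting methods, read pairs were trimmed with BBDuk, mapped with STAR to Ensembl GRCm38 transcripts, quantified with Sailfish and scaled to total counts, and the ages were compared with DESeq2. The Sailfish values are named there as TPM, which already account for transcript length, and these were transformed into the normalized counts. Whether the normalized counts still carry that correction was not tested. The deposited table holds, for each gene, the authors' mean normalized count, a signal averaged over the 6 libraries. Its 5 other columns (fold change, standard error, statistic, p-value, adjusted p-value) are the authors' comparison and were not used. The planned age test needs values per library and was not run.

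The means sum to 40816668. There were 6 distinct lowest values that many genes shared. Taken as genes read once in a single library, these values correspond to size factors from 0.959 to 1.06. That reading was not tested, and it takes the values as reads, whereas the supporting methods start from TPM values. As such factors follow scaling to total counts, the depth of each library is unknown, and no interval is given.

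Genes were those of the list and of lists fixed by name, all chosen with earlier results of these data known, and 1 gene was left out of these lists and is not analysed here. Of the lists other than the 9 genes, the text names some members and gives the rest by counts and ranges. Models of GENCODE on GRCm38, a later release than the authors' annotation, gave positions and lengths, and 96.9% of genes with a mean of at least 10 had a length, matched by symbol or synonym. Levels are means divided by the longest transcript, and the coding length came from the annotated coding sequence. Percentiles count genes with a mean of at least 10. Own sequence was checked with words of 50 bases on the transcribed strand. Python 3.11.15, numpy 2.4.6, pandas 2.3.3 and matplotlib 3.10.9 were used. The level calculation was tested on simulated data. Other lengths, other minimums and the undivided count were tried as alternatives.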

Additional observations from a re-analysis of the deposited data

How the results depend on the processing

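The values have no error, so a value was counted as moved when it changed by more than 1.5 times. With the median transcript length 2 ratios turned direction, Tet2 to Tet1 (0.977) and Tet3 to Tet1 (0.284), and these moved: Dnmt3a to Dnmt1 (16.2), Dnmt3a to Dnmt3b (138), Tet2 to Tet3 (3.44), Mbd2 to Mbd3 (2.46), Uhrf2 to Uhrf1 (26.4), Dnmt3a to Tet2 (6.79) and the share of Dnmt3a among the writers (93.6%). This length falls where many short transcripts are annotated. With the coding length Dnmt3a to Dnmt1 (4.53), Dnmt3a to Dnmt3b (26.2) and Dnmt3a to Tet2 (4.89) moved, in the same direction. With the transcript of the longest coding sequence Tet2 to Tet3 (1.13) and Tet3 to Tet1 (5.54) moved, in the same direction. By the undivided count all of these ratios kept their direction, from 1.59 for Mbd2 to Mbd3 up to 27.7 for Dnmt3a to Dnmt3b. The shares of Tet2, Mbd2 and Mbd3 moved by less than 1.5 times under each alternative. Among the other shares, the median transcript length moved those of Dnmt1 (5.76%), Dnmt3b (0.676%), Tet1 (44.2%), Tet3 (12.6%) and Uhrf1 (0.717%), the coding length those of Dnmt1 (17.5%) and Dnmt3b (3.03%), and the undivided count those of Dnmt3b (2.52%) and Uhrf1 (2.72%). The percentiles by count of the less abundant genes rested on the minimum. With no minimum Dnmt3b was at percentile 45.1 and Uhrf1 at 47.9, and with a minimum of 100 Dnmt3b was at 2.43, Uhrf1 at 7.33 and Tet1 at 21.2.

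No paired analysis was possible because a single mean over both ages was used for each gene. For the same reason leaving out each replicate, DESeq2 and the filter on counts in an age comparison were not run.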
